A study of Mus musculus with 2 samples.

Results

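The imprinted Dlk1-Dio3 locus of mouse chromosome 12 was described in polyadenylated RNA from the limb of C57BL/6J embryos at embryonic day 14.5. Its 6 genes, chosen by name from 43346 gene rows, were the maternally expressed noncoding genes Meg3, Rian and Mirg and the paternally expressed coding genes Dlk1, Rtl1 and Dio3. All samples belonged to 1 group of 2 biological replicates, with no treatment or genetic change named in the labels, so the levels of genes within the tissue could be compared but no conditions. Each replicate was a pool of male and female littermates, and both carried the same donor identifier. Whether the pools came from separate litters, and which limbs were taken, was not given in the labels, so every error below measures only the spread between these 2 samples. The libraries were strand-specific and held RNA above 200 nucleotides and were read from both ends, with 110172148 and 103363136 estimated counts on genes in replicates 1 and 2.

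Imprinted genes are transcribed mainly from the copy inherited from 1 parent. At this locus a differentially methylated region upstream of Meg3 carries methylation on the paternal copy, where the coding genes are active, and lacks it on the maternal copy, where long noncoding RNAs and many small RNAs are made. The coding products act in growth: Dlk1 restrains fat cell formation, Rtl1 is needed in placenta and muscle, and Dio3 inactivates thyroid hormone. The strain is inbred and the tables hold no allele counts, so parental origin was not measured here and the words maternal and paternal state background.

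All 6 genes reached a level of 1 TPM (a length-scaled share of all transcripts) in both libraries, as did 33.8% of the gene rows. The locus was rich in RNA: its 6 genes together made up 1.56% and 1.94% of all TPM, and 1.23% and 1.43% of all gene counts, in replicates 1 and 2. Meg3 alone gave 50.9% and 51.6% of the TPM of the 6 genes, Rian 32.2% and 33.0%, Dlk1 14.2% and 12.5%, and Mirg 2.68% and 2.90%. Rtl1 and Dio3 were each under 0.1% of it. In a bulk sample fewer cells of a type and less RNA per cell cannot be told apart.

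**Figure D1:**
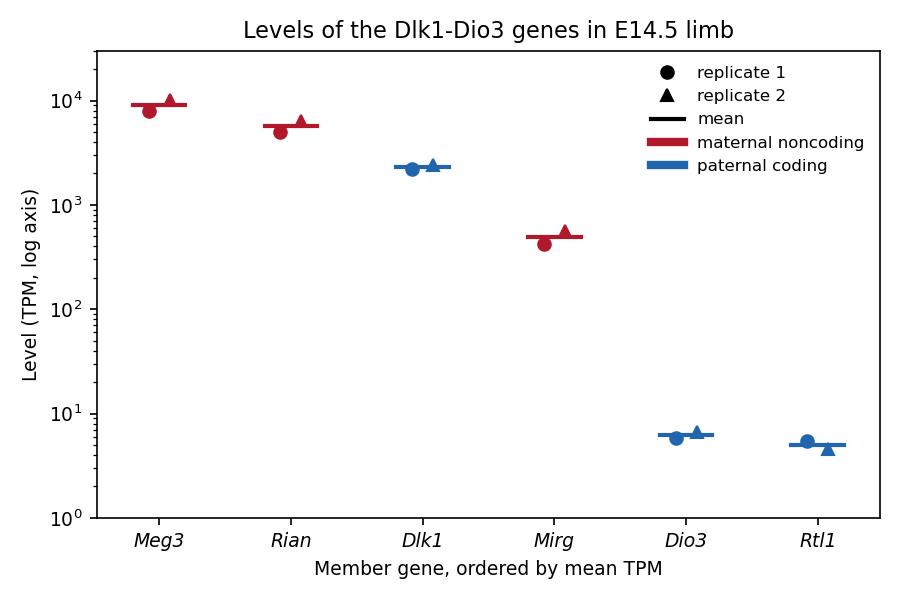
Level of each gene in TPM on a log axis, with replicate 1 as a circle, replicate 2 as a triangle and the mean as a bar, maternal noncoding genes in red and paternal coding genes in blue. Meg3, Rian and Dlk1 lie above 2000 TPM in both libraries, Mirg between 418 and 563, and Dio3 and Rtl1 between 4.61 and 6.66.

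Meg3 (ENSMUSG00000021268.13; GRCm38 chromosome 12, 109541001 to 109571726, plus strand) is a long noncoding RNA known as a growth suppressor and, in mouse embryonic stem cells, as a partner of Polycomb repressive complexes. It stood at 7944 TPM in replicate 1 and 10027 TPM in replicate 2. By mean TPM it ranked 3rd of all 43346 gene rows and 2nd of the long noncoding genes. Its share of gene counts was 0.639% (95% Wilson interval 0.637% to 0.640%) and 0.773% (0.772% to 0.775%), where the intervals cover counting error only. The estimated counts, 703840 and 799234, were not whole numbers, the sign that some of its reads were shared with other genes. On the opposite strand, all 1228 exonic nucleotides of Gm26906 fall within exons of Meg3. This RNA held 33 and 31 counts, or 0.43 and 0.44 TPM. Its counts were whole numbers, unlike those of Meg3. The strand setting of the counting was not given in the sources used here, and whether it kept the reads of these genes apart was not tested.

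The Meg3 signal was divided among 11 annotated transcripts, 5 of which reached 5% of its TPM. Meg3-211, of 797 nucleotides, held 27.9% and 28.3% of the gene's TPM. Meg3-204, of 695 nucleotides, held 26.5% and 28.5%, so the order of these transcripts differed between the libraries. Meg3-205, a transcript of 1498 nucleotides at the 5′ end of the gene, held 20.2% and 17.6%, followed by Meg3-202 with 10.5% and 10.9% and by Meg3-207 with 8.37% and 7.67%. The largest block of reads lay elsewhere. Meg3-209, a transcript of 14548 nucleotides, held 2.70% and 2.75% of the TPM but 32.8% and 34.5% of the counts. Its reads, spread over that length, count for few molecules.

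Rian (ENSMUSG00000097451.5; chromosome 12, 109603940 to 109661716, plus strand) is the host of a tandem array of box C/D small nucleolar RNAs and of several microRNAs. Replicate 1 held 5028 TPM and replicate 2 held 6401 TPM, which placed Rian 11th of all genes and 4th of the long noncoding genes. Its counts, 387231 and 410458, differed less between the libraries than its TPM did. Replicate 2 had fewer gene counts in total, and the mean effective length that divides the counts was 1027 nucleotides in replicate 1 and 919 in replicate 2.

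That length followed the mixture of Rian transcripts, which was the least alike between the libraries of all 6 genes. Rian-207, of 553 nucleotides, held 25.2% of the gene's TPM in replicate 1 and 36.5% in replicate 2. Rian-213, of 1219 nucleotides, went the other way with 27.3% and 19.6%. Rian-202, of 2355 nucleotides, held 22.0% and 21.8% of the TPM and 46.1% and 50.4% of the counts, and Rian-208 and Rian-205 held between 4.44% and 7.93% each. The 9 of 19 transcripts that start in the last 15.6 kb of the 57.8 kb gene made up 84.3% and 86.6% of its TPM, a window chosen after the values were seen. The microRNA hairpins within Rian end 14.4 kb after its start, far upstream of that window.

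Mirg (ENSMUSG00000097391.4; chromosome 12, 109729764 to 109749460, plus strand) is the noncoding host of the most distal microRNA cluster of the locus. It stood at 418 TPM in replicate 1 and 563 TPM in replicate 2, 240th of all genes and 8th of the long noncoding genes, well below the other noncoding members in both libraries. Mirg-207, with 2 exons in the last part of the gene (109747964 to 109749458) and a length of 694 nucleotides, held 53.2% and 46.7% of the TPM. Mirg-202, a transcript of 8 exons and 1300 nucleotides, held 26.5% and 36.3%. In counts the order was reversed in both libraries, with 33.4% of the reads of replicate 1 on Mirg-207 and 37.0% on Mirg-202. Mirg-201 held 5.40% and 4.17% of the TPM, and Mirg-209 held 5.27% and 3.92%.

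**Figure D2:**
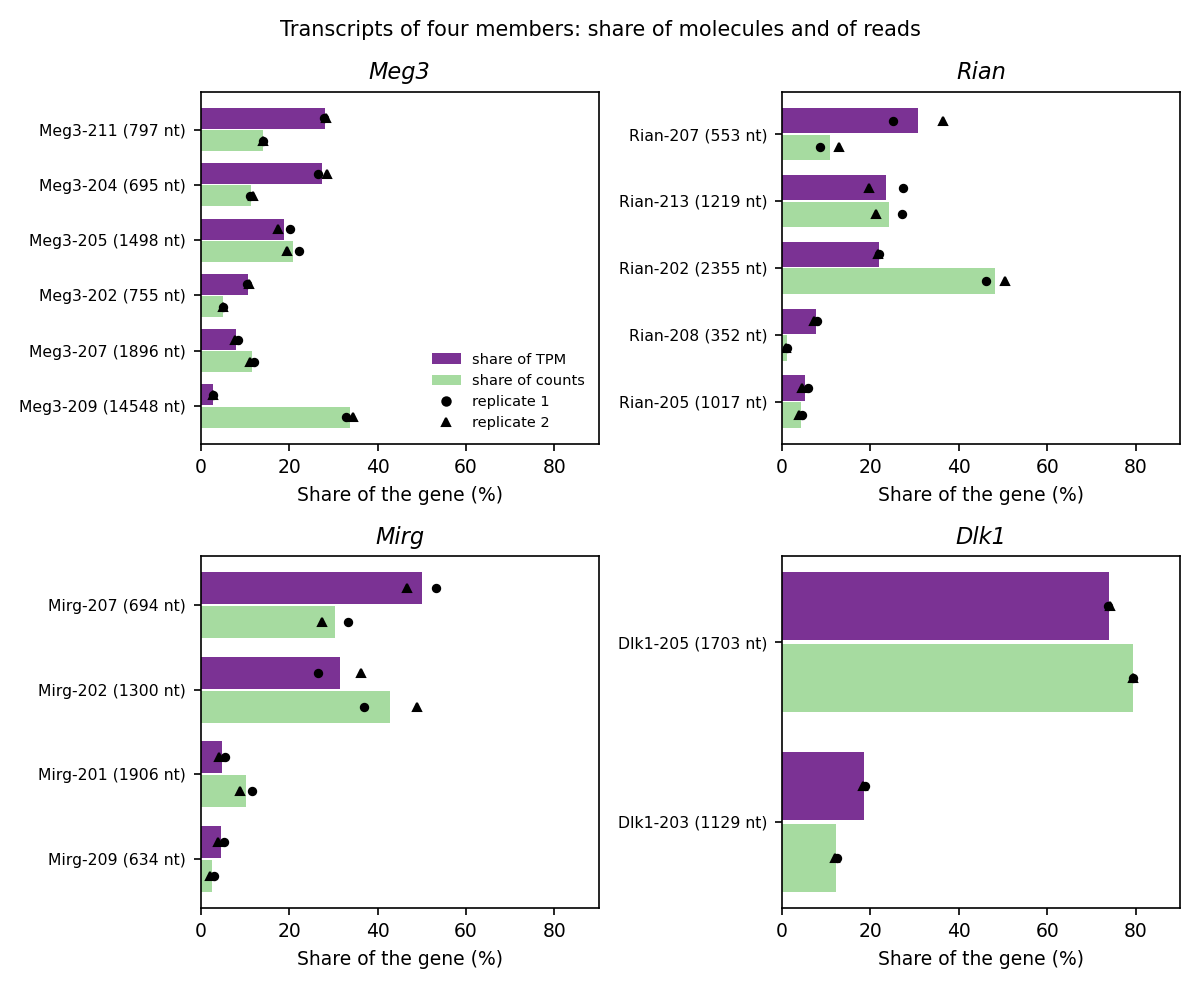
Share of each gene's TPM (purple) and counts (green) held by its transcripts, in percent, as the mean of both libraries with replicate 1 as a circle and replicate 2 as a triangle. Shown are transcripts with at least 5% of the TPM in either library and Meg3-209, which takes the largest share of Meg3 counts at under 3% of its TPM.

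The small RNAs of the locus could not be read in these libraries, although they are what the maternal transcripts are best known for. Within the 828 kb from Dlk1 to Dio3 the tables held 59 microRNA rows and 23 small nucleolar RNA rows, all with 0 counts. None is longer than 124 nucleotides and each had an effective length of 0 in both libraries, so a count of 0 says nothing about their level. RefSeq (GRCm38.p6) places 61 microRNA genes with 113 mature RNAs in the same interval, 57 of the genes on the plus strand. For 58 the table gives the hairpin, and the other 3 were placed by their mature RNAs. By position, 14 lie within Mirg, 3 in introns of Rian, 2 in exons of Meg3 and 6 on the strand opposite to Rtl1, while 26 lie between Rian and Mirg and 8 between Meg3 and Rtl1. Of the remaining 2, 1 lies within Rtl1 on its own strand and 1 elsewhere in the interval.

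The 6 hairpins opposite to Rtl1 are shown first, since all lie within its exons and their mature RNAs are therefore fully complementary to the Rtl1 transcript, which several of them are known to cleave. One mature RNA of each follows from the RefSeq table, 5′ to 3′, with the seed (bases 2 to 8) in capitals.
mmu-miR-431-5p: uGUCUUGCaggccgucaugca
mmu-miR-433-3p: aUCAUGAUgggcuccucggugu
mmu-miR-127-3p: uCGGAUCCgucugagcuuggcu
mmu-miR-434-3p: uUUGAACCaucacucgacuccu
mmu-miR-432: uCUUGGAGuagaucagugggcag
mmu-miR-136-5p: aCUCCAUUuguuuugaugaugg
No seed, the part by which a microRNA pairs with most of its targets, is shared among these 6.

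Of the 14 hairpins within Mirg, 4 lie in exons, 5 in introns and 5 are partly exonic. One mature RNA of each of the 4 exonic hairpins is given in the same way, because annotated exons of Mirg hold these hairpins whole.
mmu-miR-134-5p: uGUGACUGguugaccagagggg
mmu-miR-485-3p: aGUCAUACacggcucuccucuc
mmu-miR-377-3p: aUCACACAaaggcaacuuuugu
mmu-miR-410-3p: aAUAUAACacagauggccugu
The exons concerned belong to different transcripts of unequal level. The hairpin of mmu-miR-410 lies within exons of 5 of the 12 Mirg transcripts, Mirg-202 among them, which together held 32.5% and 41.3% of the Mirg TPM. That of mmu-miR-377 lies within 1 transcript with 5.40% and 4.17%, and those of mmu-miR-134 and mmu-miR-485 within 3 transcripts that summed to 1.65% and 1.24%. Mirg-207, which holds the largest share, starts downstream of all 4.
Across all 113 mature RNAs of the locus there were 104 seeds, of which 9 were shared by 2 mature RNAs each. Both pairs below share a seed: the first lies within introns of Mirg, and the second joins the exonic hairpin of mmu-miR-410 with a hairpin between Rian and Mirg.
mmu-miR-453: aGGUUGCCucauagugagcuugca
mmu-miR-496a-5p: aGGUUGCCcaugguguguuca
mmu-miR-410-5p: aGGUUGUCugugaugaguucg
mmu-miR-494-5p: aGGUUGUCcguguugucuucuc

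Dlk1 (ENSMUSG00000040856.13; chromosome 12, 109452823 to 109463336, plus strand) encodes a transmembrane protein with EGF-like repeats related to the Notch ligands, which holds back differentiation of fat precursors. It stood at 2213 TPM in replicate 1 and 2420 TPM in replicate 2. This placed it 45th of all genes and 36th of the protein-coding genes, and it made up 99.5% of the TPM of the 3 paternal genes in both libraries. The libraries lay close together, with a mean of 2316 ± 147 TPM (SD, n = 2).

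Dlk1 is made in forms that differ in a stretch next to the membrane, which holds the site where the outer part of the protein is cut off and released. The annotated coding sequence has 1155 nucleotides for 385 amino acids. Dlk1-205, which carries it whole, held 73.7% and 74.2% of the Dlk1 TPM, and Dlk1-203, which lacks the stretch and encodes 312 amino acids, held 18.8% and 18.4%. Over all transcripts, those with the full coding sequence summed to 1633 and 1799 TPM, or 74.1% ± 0.339 (SD, n = 2) of the gene. The 4 transcripts that lack the whole stretch summed to 480 and 538 TPM, or 22.0% ± 0.361. The ratio of full to lacking forms was 3.40 and 3.34, a mean of 3.37 ± 0.0413. Dlk1-206, which lacks part of the stretch, held 0.27% and 0.26%.

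The missing stretch is printed because it is what separates the membrane-bound from the released forms. It covers chr12:109459893-109460111 (GRCm38, plus strand), 219 nucleotides or 73 codons in frame, read from the GENCODE M21 transcript sequence, with capitals for the first 153 nucleotides (51 codons) that Dlk1-206 also lacks.
Dlk1 alternative stretch: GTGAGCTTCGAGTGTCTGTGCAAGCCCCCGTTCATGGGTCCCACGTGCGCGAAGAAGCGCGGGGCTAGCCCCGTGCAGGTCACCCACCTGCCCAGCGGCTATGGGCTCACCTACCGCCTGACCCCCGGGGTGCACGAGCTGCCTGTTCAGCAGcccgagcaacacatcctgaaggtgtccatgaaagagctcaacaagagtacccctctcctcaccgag
It starts with GT and ends with AG, the bases that usually open and close an intron.

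Rtl1 (ENSMUSG00000085925.2; chromosome 12, 109589193 to 109600330, minus strand) is a coding gene derived from a retrotransposon, known for its roles in fetal capillaries of the placenta and in muscle. It was among the low genes of the tissue, at 5.48 TPM in replicate 1 and 4.61 TPM in replicate 2, 11067th of the protein-coding genes. Its single annotated transcript of 6357 nucleotides held 2531 and 1971 whole counts, so the low TPM rests on many reads. The libraries are stranded, but whether the counting used strand was not given in the sources used here. Whether it kept reads of Rtl1 apart from those of RNA opposite to it was not tested. No exon of Rian overlaps Rtl1.

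Dio3 (ENSMUSG00000075707.5; chromosome 12, 110279068 to 110281097, plus strand) encodes the deiodinase that inactivates thyroid hormone. It lies far from the other members, at the distal end of the locus. Replicate 1 held 5.80 TPM and replicate 2 held 6.66 TPM, from 713 and 756 counts, which ranked it 10581st of the protein-coding genes. Dio3-202, of 2030 nucleotides, held 66.9% and 69.3% of this, and Dio3-201, with 1449 nucleotides and a shorter annotated coding sequence, held the rest.

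The maternal noncoding genes summed to more RNA than the paternal coding genes in both libraries. Their sum was 13390 TPM against 2224 TPM in replicate 1 and 16991 TPM against 2432 TPM in replicate 2. The ratio was thus 6.02 and 6.99, a mean of 6.50 ± 0.683 (SD, n = 2). The size of this ratio depended on what is counted as the length of a gene. In CPM (counts scaled to library size, with no length scaling) it was 5.01 ± 0.368. In counts per kilobase of all annotated exons merged, it was 1.61 ± 0.123. The merged exons of Meg3 span 18089 nucleotides and those of Rian 18234, while the effective lengths behind their TPM were 1181 and 1027 in replicate 1. For Dlk1 the same lengths were 5657 and 1397. The direction, maternal above paternal, held in both libraries on all of these scales.

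Gene by gene, the noncoding genes were not always the higher ones. Differences were taken on the log2(TPM + 1) scale with variances from a limma fit across 15055 genes, and each 95% interval was widened for the 15 pairs of members. The variances of both genes were combined as if independent, although both genes were read in the same libraries. By this test 12 of 15 pairs differed beyond the spread between replicates. Of the 9 pairs of a maternal and a paternal gene, 7 had the maternal gene higher, 1 had the paternal gene higher and 1 did not pass. Dlk1 was the exception: it lay above Mirg by 2.25 (SE 0.27, interval 0.92 to 3.58), with ratios of TPM of 5.29 and 4.30 in the 2 libraries. Meg3 lay above Dlk1 by 1.95 (SE 0.30, interval 0.46 to 3.43), at ratios of 3.59 and 4.14.

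Read in order of level, some neighbours passed the test of pairs and others did not. Meg3 exceeded Rian by 0.65 (SE 0.32), an interval of -0.93 to 2.23 that includes no difference, although the ratio was 1.58 and 1.57 in the libraries. Rian exceeded Dlk1 by 1.29 (SE 0.29, interval -0.16 to 2.75), at ratios of 2.27 and 2.64, and this too did not pass. The step from Mirg down to Dio3 was the widest between neighbours in TPM, 6.07 (SE 0.22, interval 4.97 to 7.18), and 3.40 per kilobase of merged exons. Dio3 and Rtl1 differed by 0.26 (SE 0.17, interval -0.60 to 1.12) and were not separated per length. Replicate 1 alone gave 0.07 and replicate 2 alone 0.45, and per kilobase of merged exons the sign differed, at -0.18 and 0.26. Without length scaling Rtl1, which has the longer transcript, was the higher one, at 22.8 and 19.2 CPM against 6.42 and 7.37.

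Some of these statements rest on the scale. Per kilobase of merged exons, Meg3 over Dlk1 was -0.07 and 0.10 on the log2 scale in replicates 1 and 2. On that scale Rian lay below Dlk1, at -0.95 and -0.87, and Dlk1 over Mirg was 3.59 and 3.26. With genes of low TPM kept in the fit, 8 of 15 pairs passed, and Dlk1 over Mirg had an interval of -0.96 to 5.46.

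The members differed between the libraries by 1.38-fold or less in TMM-scaled counts. Mirg had 223 and 306 CPM, a log2 ratio of replicate 2 over replicate 1 of 0.46. Meg3 had 6340 and 7791, a ratio of 0.30, and Rian had 3488 and 4001, a ratio of 0.20. For Dlk1 the values were 2088 and 2270, a ratio of 0.12. Dio3 had a ratio of 0.20 and Rtl1 one of -0.25, so Rtl1 was the only member that was lower in replicate 2.

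With an exact two-sided binomial test per gene and Benjamini-Hochberg adjustment over 20396 genes, the counts of all 6 members differed between the libraries, as did 60.5% of all genes tested. Of the members, 5 were higher in replicate 2, where 30.3% of all genes were, and 1 was lower, where 30.2% of all genes were. The adjusted p was 0.0164 for Dio3, 3.64e-08 for Rtl1 and 1.38e-176 for Dlk1. This test compares the reads of 1 library with those of the other, not conditions, and at this depth it calls small differences. In size most members were near the middle: over all genes tested the median absolute log2 ratio was 0.26. Mirg had a larger absolute ratio than 74.2% of these genes, Meg3 than 56.4%, Rtl1 than 48.7%, Dio3 than 40.6%, Rian than 40.5% and Dlk1 than 26.4%. Among the 9617 genes whose mean reached 10 TPM, to which Rtl1 and Dio3 do not belong, the median was 0.20, and the shares were 86.3% for Mirg, 67.4% for Meg3, 48.6% for Rian and 31.3% for Dlk1.

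**Figure D3:**
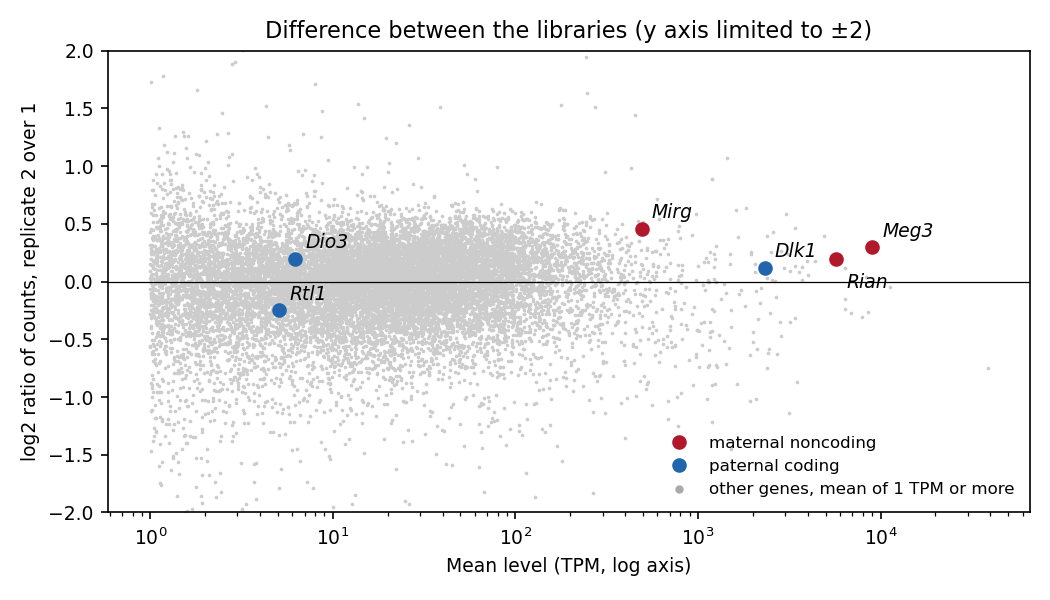
Log2 ratio of TMM-scaled counts in replicate 2 over replicate 1 against mean TPM on a log axis, for the 15008 genes whose mean reached 1 TPM, with the y axis limited to 2 either way (81 genes lie beyond). The 6 members, in red and blue, lie between -0.25 and 0.46, inside the cloud of other genes.

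Tissue markers were compared between the same libraries by the same exact binomial test, which called 30.3% of all genes higher and 30.2% lower in replicate 2. The 6 limb mesenchyme markers (Prrx1, Msx1, Tbx5, Tbx4, Pitx1 and Hoxd13) were all detected and all called higher in replicate 2, with a summed level of 366 and 471 TPM. Their log2 ratios ran from 0.07 for Prrx1, which stood at 101.42 and 100.55 TPM, to 0.57 for Pitx1. The 4 cartilage markers, Col2a1, Acan, Matn1 and Sox9, were likewise all higher in replicate 2, at 1916 and 2292 TPM in sum. The 4 muscle markers were split, 2 higher and 2 lower, at 1481 and 1462 TPM. Of 5 nervous tissue markers none was higher and 4 were lower, at 60.0 and 39.1 TPM. The part of these differences in the ratios of the members was not tested. Of other tissues that express Dlk1 or Meg3, fetal liver markers summed to 38.4 and 40.3 TPM, with 4 of 5 detected, 3 higher and 1 lower in replicate 2. Alb was the lower one, at 5.70 and 1.10 TPM, while Afp stood at 19.6 and 23.6, Apoa1 at 7.70 and 9.30 and Ttr at 4.84 and 5.87. Pituitary markers summed to 2.14 and 2.09 TPM with 1 of 4 detected and Prl and Cga at 0. None of the 4 adipocyte markers was detected, with sums of 1.07 and 1.98 TPM. Of the 3 tested, 2 were called higher in replicate 2 and none lower.

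The high levels were not shared by every measurable gene of the region. Of 96 rows between Dlk1 and Dio3, 10 had any count and 9 were detected, of which 6 are the members. All rows without counts were short RNAs with an effective length of at most 14.5 nucleotides, so their 0 counts say nothing about their level. The detected rows other than members were low noncoding RNAs: Gm26945 at 3.15 and 3.63 TPM, Gm37899 at 2.14 and 2.46, and B830012L14Rik at 5.17 and 7.07. B830012L14Rik, which lies between Rian and Mirg on the plus strand, had a log2 ratio between the libraries of 0.45. Gm37899 had a ratio of 0.20 and Gm26945 one of 0.19. The exact binomial test called B830012L14Rik (adjusted p 2.98e-21) and Gm37899 (4.64e-04) but not Gm26945 (0.0796). It called 60.5% of all genes tested.

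Of 13 flanking genes with a row, 12 were detected, with a median of 33.4 TPM. The highest were Dync1h1, the dynein heavy chain, at 152 and 149 TPM, Hsp90aa1, a chaperone, at 141 and 134, and Evl, an actin regulator, at 87.2 and 85.3. Begain, the nearest listed gene before Dlk1, stood at 37.2 and 39.8 TPM, and Degs2 was listed at 0.03 in both. Thus Meg3, Rian, Dlk1 and Mirg lay above every listed flanking gene in both libraries, while Rtl1 and Dio3 lay below the flanking median. In the library comparison, 6 of the 13 were higher and 2 lower in replicate 2, beside 30.3% and 30.2% of all genes tested. Dio3os, opposite to Dio3, was not analysed here.

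**Figure D4:**
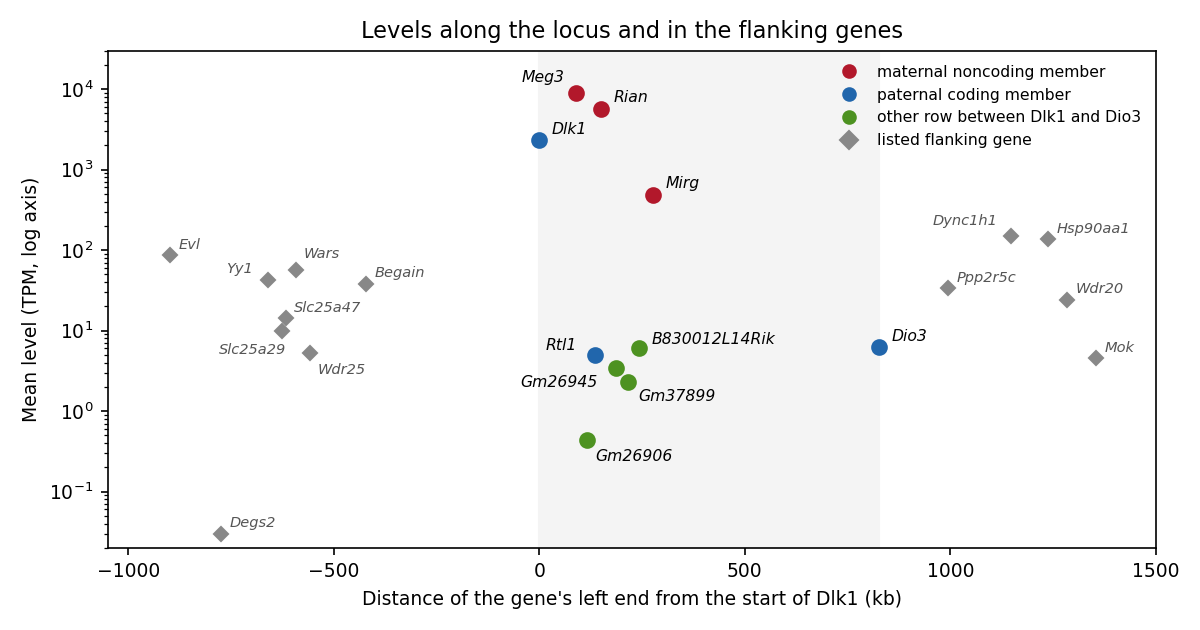
Mean TPM on a log axis against the distance in kb of each gene's left end from the start of Dlk1, for members (red and blue), other rows with counts inside the locus (green) and listed flanking genes (grey diamonds), with the interval from Dlk1 to Dio3 shaded. The locus holds both the highest points and several near 5 TPM, whereas 12 of 13 flanking genes lie between 4.53 and 150 TPM.

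Genes that read, keep or remove the methylation of imprints were present in the limb. Of 15 listed, 13 were detected and the median level was 26.5 TPM. By the same exact binomial test, 8 were higher and 4 lower in replicate 2 among 14 tested, beside 30.3% and 30.2% of all genes tested. Trim28, the corepressor recruited to methylated imprints, stood at 506 and 664 TPM. Zfp57, the zinc finger protein that binds them, stood at 124 and 114, and Uhrf1, which guides maintenance methylation, at 87.6 and 95.1. The germ-line factors Dnmt3l (0.13 and 0.08 TPM) and Dppa3 (0.08 and 0) were under 1 TPM.

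The partners of Dlk1 were present at far lower levels than Dlk1. Of 10 listed, 9 were detected and the median level was 24.1 TPM. In replicate 2, 6 were higher and 3 lower, beside 30.3% and 30.2% of all genes tested. Sox9, which in mouse preadipocytes acts downstream of Dlk1, stood at 58.4 and 90.2 TPM. Among the Notch receptors, Notch3 stood at 39.7 and 58.6 and Notch2 at 32.0 and 40.0, with Notch1 and Notch4 lower. Adam17, the protease known to release the outer part of Dlk1, stood at 28.9 and 30.4 TPM, and the paralogue Dlk2 at 17.3 and 19.8. Pparg, the main regulator of fat cells, lay near the threshold of 1 TPM, at 1.68 and 0.83 TPM from 209 and 94 counts. Its target Fabp4 stood at 15.5 and 7.00. Cebpa, listed with them in the fat cell program, was detected in both libraries, at 20.98 and 19.16 TPM. Pparg, Fabp4 and Cebpa were all lower in replicate 2. Sox9, listed in the same program, was higher (log2 ratio 0.63), as were 2 of the 3 adipocyte markers tested.

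Most relatives of Rtl1, other coding genes of the same retrotransposon family, lay above it. Of 11 listed, 9 were detected and the median level was 22.0 TPM; 8 were higher and 1 lower in replicate 2, beside 30.3% and 30.2% of all genes tested. Peg10, an imprinted gene needed in placenta, stood at 142 and 172 TPM, Rtl3 at 108 and 123, and Rtl8b at 97.7 and 118. Rtl8a and Rtl8b had counts that were not whole, so reads were shared among near copies and their separate values are uncertain. Rtl4 (0.71 and 0.84) and Ldoc1 (0.68 and 0.58) were under 1 TPM.

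Dio3 was the highest of the 3 deiodinases. Dio2, which activates thyroid hormone, stood at 0.48 and 0.44 TPM and Dio1 at 0.07 and 0.05, both under 1 TPM in both libraries. Of 14 listed genes of thyroid hormone handling, 10 were detected and the median level was 5.49 TPM. In replicate 2, 5 were higher and 2 lower, beside 30.3% and 30.2% of all genes tested. The receptor Thra stood at 130 and 122 TPM against 0.65 and 0.62 for Thrb, and the transporter Slc7a5 at 28.8 and 36.0. Secisbp2, needed to make selenoproteins such as Dio3, stood at 27.3 and 28.2. Slco1c1, a transporter of the blood-brain barrier, was at 0.21 and 0.19.

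All 12 listed genes that process microRNAs or bind box C/D small nucleolar RNAs were detected, with a median level of 48.3 TPM. In replicate 2, 5 were higher and 5 lower, beside 30.3% and 30.2% of all genes tested. The highest were core proteins of the box C/D particle, Nop56 at 266 and 292 TPM, Snu13 at 197 and 237 and Fbl at 233 and 184. Nop56 was lower in replicate 2 in TMM-scaled counts (log2 ratio -0.24) although its TPM was higher. Among the microRNA genes, Drosha stood at 30.3 and 27.0 TPM and Dicer1 at 20.6 and 21.5.

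**Figure D5:**
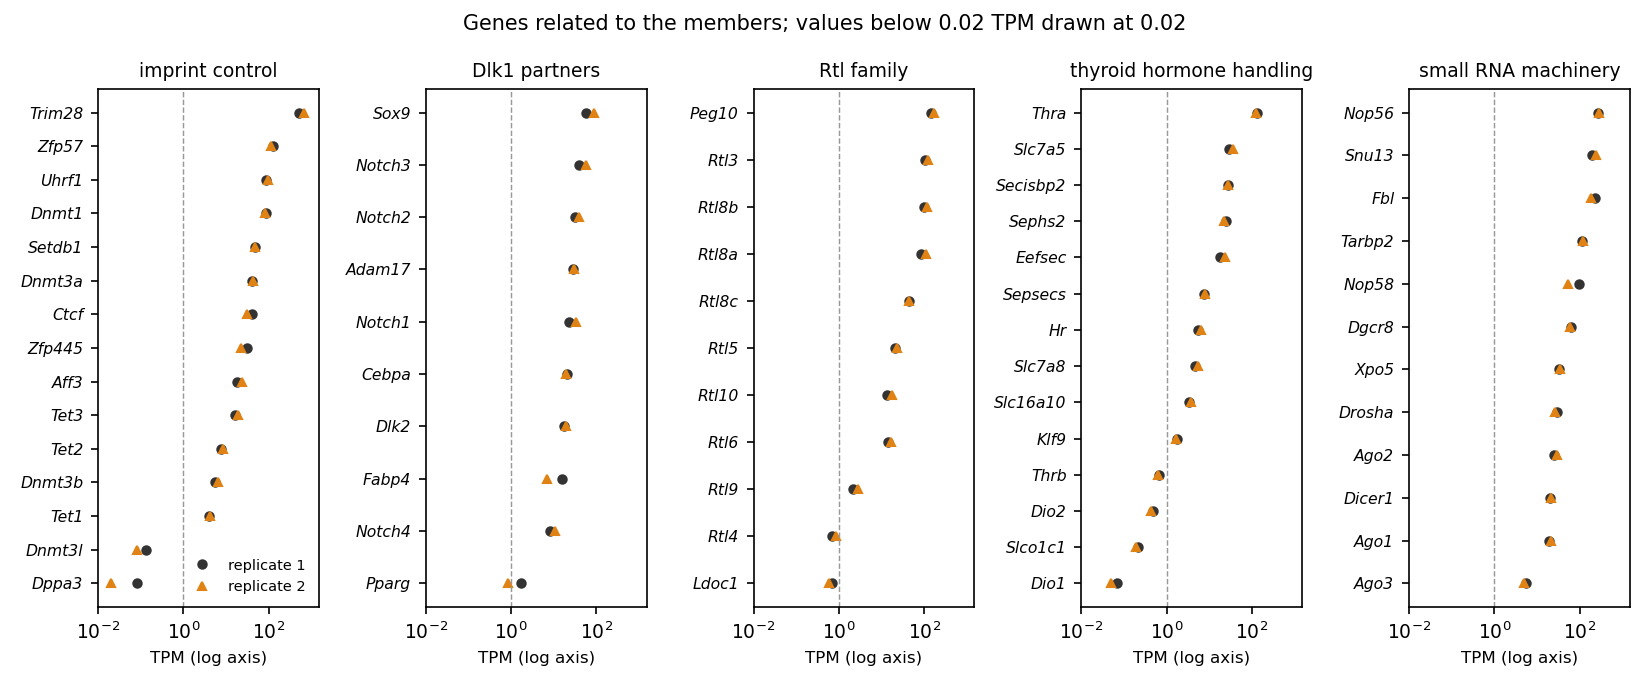
TPM on log axes of the listed genes related to the members, with replicate 1 as a dark circle, replicate 2 as an orange triangle, a dashed line at 1 TPM and values below 0.02 drawn at 0.02. Most genes lie above 5 TPM in both libraries; those left of the line include Dio1, Dio2 and Thrb.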

How the data were processed

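Polyadenylated RNA of 2 limb samples was analysed from a gene and a transcript table per sample, made against mm10 with GENCODE M4, per the notes deposited beside them. The program and its strand setting are not given in the sources used here. Per the file headers, the authors give the expected count (reads shared between genes where they fit several), TPM, posterior mean TPM and, per transcript, its percent of the gene's TPM. Reads were not realigned.

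Names and exons came from GENCODE M21 (GRCm38), in which 884 of 43346 gene rows had no match. ERCC spike-ins (2.39% and 2.36% of all counts), phiX (1.35% and 1.94%) and tRNA rows were left out. Libraries were compared in R 4.3.3 by an exact binomial test (two-sided, conditional on each gene's total) of rounded counts, for genes with at least 10 counts in total. TMM factors of 1.01 and 0.992 came from edgeR 4.0.16, with a prior count of 0.5 for ratios and an adjusted p under 0.05. Wilson intervals were computed in Python 3.11.15 with scipy 1.17.1. With 1 group of 2 samples, edgeR had no contrast to test. Pairs of members were compared with limma 3.58.1 (intercept only, eBayes with trend, 5.37 moderated df) on log2(TPM + 1) of the deposited TPM, over members and all genes whose mean reached 1 TPM. A gene at 1 TPM or more in both libraries was called detected. A count of 0 allows up to 3 counts, 0.0272 and 0.0290 CPM. Scripts were tested on simulated data.

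The members, lists and tests were chosen with earlier results of these data known. One gene of the thyroid hormone list is not reported here and was left out of its counts. Named were all members and detected rows between Dlk1 and Dio3. From each list other than the tissue markers, the 3 highest genes were named, and genes under 1 TPM where a list has 5 or fewer. Tissue markers were named only in part. Genes the text turns on and transcripts with at least 5% of a member's TPM in either library were named too. Others, such as Meg3-209 and Gm26906, were chosen after their values were seen. Alternatives were DESeq2 1.42.0 size factors, total counts, ERCC sums, no filters, a pseudocount of 0.1, posterior mean TPM, CPM, counts per kilobase of merged exons and leaving out a replicate.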

Additional observations from a re-analysis of the deposited data

How the results depend on the processing

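No paired comparison of conditions was possible because there is only 1 group. The genes of each pair of members were read in the same libraries, but the intervals treat them as independent. The 6 members kept their direction and their call between the libraries under DESeq2 size factors, total counts, ERCC sums and no count filter, and the count of genes called stayed between 12292 and 12348. The maternal over paternal ratio of 6.50 was 5.01 in CPM without length scaling and 1.61 per kilobase of merged exons, and ranged from 6.02 to 6.99 when either replicate was left out. Of 15 pairs of members, 12 differed beyond the spread, 13 in CPM or with intervals that were not widened, and 8 with no TPM filter, where Meg3 over Dlk1, Meg3 over Mirg, Rian over Mirg and Dlk1 over Mirg no longer passed; pseudocount and posterior mean TPM changed no pair. Rian over Dlk1 passed with intervals not widened (0.56 to 2.02). The reversals were Dio3 over Rtl1 in CPM (-1.48, interval -2.26 to -0.70) and Rian over Dlk1 per kilobase of merged exons (-0.91), a scale chosen for the pairs after seeing the data. Both follow from the gene lengths that the scales use. On the latter scale 13 other pairs moved by more than the spread without a change of sign of their mean, such as Mirg over Dio3 from 6.07 to 3.40 and Meg3 over Dlk1 from 1.95 to 0.01. Leaving out a replicate moved 4 pairs, all with Rtl1, such as Dio3 over Rtl1 at 0.07 and 0.45. The 2 samples limit the width of every interval, and Dio3 and Rtl1 were the members with the fewest counts.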
